A study of Drosophila melanogaster with 5 samples.

Results

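mir-375 and mir-7 are a pair of microRNA genes known from secretory and endocrine cells across animals. They were chosen by name: the count table was searched for rows that belong to either hairpin, which gave 4 of 479 mature microRNA arms, from 2 of 259 hairpins. The libraries came from dissected intestines (3 libraries) and from the carcasses left after dissection (2 libraries) of adult male Drosophila melanogaster of the wildtype w1118 stock, aged 2 to 3 days and kept on standard food. No treatment or genetic change separates the groups. The carcass still holds brain, eyes, muscle, fat body, epidermis and testis, so it is a mixture and not a single tissue. Small RNAs of 18 to 29 nt were sequenced, and the series design compares the intestine with the carcass.

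A microRNA is cut from a hairpin precursor into a duplex of a 5p and a 3p arm, of which one is usually kept by an Argonaute protein and guides it to partly complementary messenger RNAs, while the other is mostly degraded. In mammals miR-375 is best known from the endocrine pancreas, where it restrains insulin secretion, and miR-7 is also abundant in endocrine pancreas and pituitary; both are found in hormone-producing cells of the mammalian gut. In Drosophila miR-7 is known from photoreceptor and sensory organ development, where it acts with the Notch and EGF receptor pathways, and from insulin-producing cells of the brain. The fly intestine contains enteroendocrine cells, which release peptide hormones, among its absorptive enterocytes and stem cells. The counts are of whole tissues, so the cell type that holds either microRNA was not measured.

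In the BDGP6.54 annotation mir-375 (FBgn0262177) lies on the plus strand of chromosome 2L at 857542 to 857632, with miR-375-5p at 857556 to 857579 and miR-375-3p at 857596 to 857617. The hairpin sits inside an exon of the long non-coding RNA CR45345 on the same strand, at 857403 to 860079. It overlaps no protein-coding gene: the nearest are CG13949, 903 bases away, and CG13950, 2565 bases away. mir-7 (FBgn0262370) lies on the plus strand of chromosome 2R at 20606067 to 20606154, with miR-7-5p at 20606081 to 20606103 and miR-7-3p at 20606121 to 20606142. It lies in an intron of HnRNP-K, an RNA-binding protein gene on the same strand, in each of the 5 transcripts (of 6) that span it. Neither hairpin has a close microRNA neighbour: the nearest is 614401 bases away for mir-375 (mir-965) and 20662 bases away for mir-7 (mir-992), in both cases on the opposite strand.

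The intestine libraries held 329424 to 547937 microRNA reads and the carcass libraries 1654625 and 3038873, so 3 reads correspond to 5.48 to 9.11 CPM (reads scaled to a common library size) in the intestine and to 0.987 to 1.81 CPM in the carcass. The summed levels of marker microRNAs differed between the tissues in the directions that the labels imply, whatever arms the filter kept. The lists were chosen with earlier results of these data known, so the sums are not an independent check of the dissection. No count of called arms is given for them, since many markers passed the filter through 1 tissue alone. The 3 intestine marker hairpins mir-958, mir-956 and mir-314 summed to 295133 to 309012 CPM in the intestine, against 2732 to 3240 CPM in the carcass, with miR-958-3p and miR-956-3p the most abundant (log2 fold changes 8.42 and 6.99). The 10 arms of the neuron and eye list summed to 686 to 834 CPM in the intestine, against 20686 to 30126 CPM in the carcass. Of these arms, miR-137-3p went the other way, at 125 to 191% of its carcass mean. The 4 muscle arms summed to 27823 to 41637 CPM in the intestine and 143062 to 153071 CPM in the carcass. The 42 testis arms, tested or not, summed to 45.5 to 54.8 CPM in the intestine and 3554 to 3705 CPM in the carcass. They include miR-978-3p (5 intestine and 1388 carcass reads) and miR-984-5p (1 and 1307 reads).

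The pair differed between the tissues in opposite directions. Both arms of mir-375 were higher in the intestine than in the carcass, by 7.46-fold for miR-375-3p and 11.1-fold for miR-375-5p, and the main arm of mir-7, miR-7-5p, was 4.97-fold lower. The minor arm, miR-7-3p, was rare in both tissues and did not pass the filter on low counts, so 3 of the 4 arms were tested, 2 of which were called higher and 1 lower. Of all arms, 34.7% of the 222 that were tested were called higher and 48.2% lower, so a call in either direction was common. In whole tissues, fewer cells that hold a microRNA and less of it per cell cannot be told apart.

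**Figure D1:**
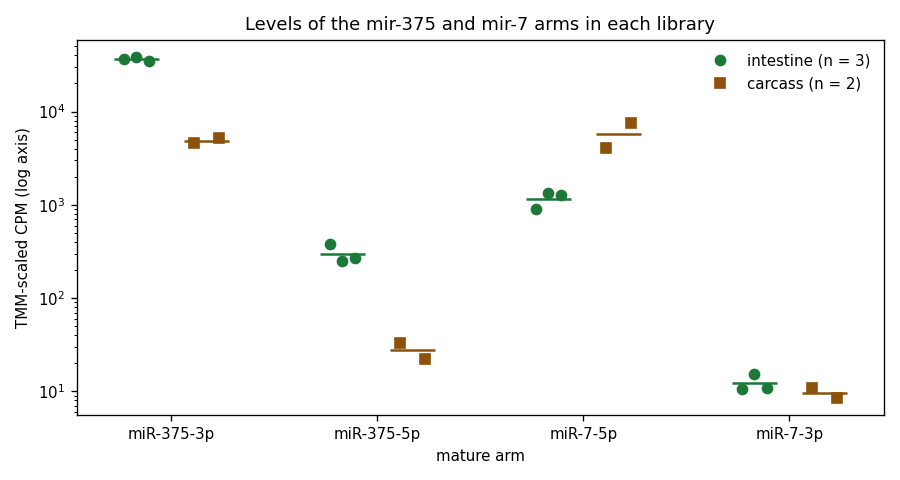
TMM-scaled CPM of each mature arm (log axis) in 3 intestine libraries (circles) and 2 carcass libraries (squares), with horizontal lines at the tissue means. The tissues separate for both arms of mir-375 and for miR-7-5p, in opposite directions, and overlap for miR-7-3p.

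miR-375-3p is the guide arm that carries the conserved miR-375 sequence, and it was one of the most abundant microRNAs of the intestine. It had 17267, 12429 and 9711 reads in intestine libraries 1, 2 and 3, against 9666 and 19171 reads in the more deeply sequenced carcass libraries 1 and 2. This was 3.15, 3.37 and 2.95% of the microRNA reads of the intestine libraries, against 0.584 and 0.631% in the carcass libraries. Among the 479 arms it ranked 7, 9 and 10 by reads in the intestine, against 24 and 26 in the carcass. The intestine libraries lay close together, all of them were above both carcass libraries, and the arm was well detected in both tissues.

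After scaling by the trimmed mean of M-values (TMM), which corrects library size for a few very abundant microRNAs, miR-375-3p measured 36502 ± 1579 CPM over the 3 intestine libraries (SD) and 4893 ± 443 CPM over the 2 carcass libraries (SD). The log2 fold change was 2.90 (SE 0.22, adjusted p = 3.84e-14, edgeR quasi-likelihood test with Benjamini-Hochberg adjustment over 222 arms). This was the 15th highest fold change of the tested arms.

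miR-375-5p, the opposite arm of the duplex, had 181, 82 and 75 reads in intestine libraries 1 to 3, against 69 and 83 in carcass libraries 1 and 2. Scaled by TMM, these were 380, 252 and 271 CPM in the intestine and 32.7 and 22.5 CPM in the carcass. The tissues did not overlap, and intestine library 1 was above the others. On the log2 scale the arm was higher by 3.47 (SE 0.29; edgeR, adjusted p = 5.16e-13), the 8th highest of the tested arms. mir-375 was thus among 28 of the 85 hairpins with both arms tested in which both were called higher; both were lower in 33.

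miR-7-5p is the guide arm that carries the conserved miR-7 sequence. It had 435, 434 and 349 reads in intestine libraries 1, 2 and 3, against 8607 and 27640 reads in carcass libraries 1 and 2. This was 0.0794, 0.118 and 0.106% of the microRNA reads of the intestine libraries, against 0.520 and 0.910% in the carcass libraries. It ranked 66, 61 and 63 of 479 in the intestine, against 26 and 19 in the carcass. All intestine libraries were below both carcass libraries, but the arm remained readily detected in each of them.

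With TMM scaling miR-7-5p measured 1169 ± 225 CPM over the 3 intestine libraries (SD), against 5792 ± 2424 CPM over the 2 carcass libraries (SD). The difference passed the test, with a log2 fold change of -2.31 (SE 0.26, edgeR adjusted p = 4.00e-10). Counted from the lowest fold change, it ranked 84 of the 222 tested arms. Without carcass library 2, the higher of the pair, it was -1.82 and still called.

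miR-7-3p, the arm opposite to miR-7-5p, had 5, 5 and 3 reads in intestine libraries 1 to 3, against 23 and 31 reads in carcass libraries 1 and 2. Scaled by TMM, these were 10.5, 15.4 and 10.8 CPM in the intestine and 10.9 and 8.42 CPM in the carcass. The tissues overlapped, and 1 intestine library was at the limit of 3 reads. The log2 ratio of the tissue means was 0.34 with TMM and -0.19 with library totals, so no direction can be given. When all arms were fitted without a filter, the fold change of miR-7-3p on the log2 scale was -0.053 (edgeR adjusted p = 0.947).

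**Figure D2:**
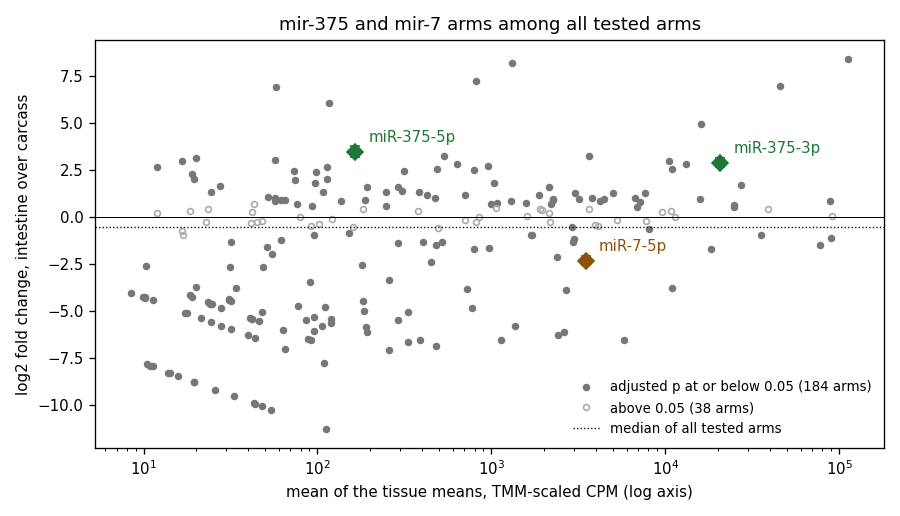
Log2 fold change, intestine over carcass, of the 222 tested arms against their mean level (TMM-scaled CPM, log axis); filled points passed an adjusted p of 0.05 and open points did not, and bars on the diamonds are standard errors. miR-375-5p and miR-375-3p stand at 3.47 and 2.90, and miR-7-5p at -2.31, against a dotted line at the median of all tested arms, -0.50.

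The fold changes depend in size, but not in direction or call, on how libraries are scaled. With library totals in place of TMM factors the log2 fold change was 2.38 for miR-375-3p, 2.95 for miR-375-5p and -2.83 for miR-7-5p, and the median of all tested arms shifted to -1.03, against -0.50 with TMM. Relative to that median, miR-375-3p stood at 3.40 and miR-375-5p at 3.97 with TMM, and at 3.40 and 3.98 with library totals. miR-7-5p stood at -1.81 with TMM and at -1.80 with library totals. With library totals 50 arms were called higher and 126 lower, against 77 and 107 with TMM.

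**Figure D3:**
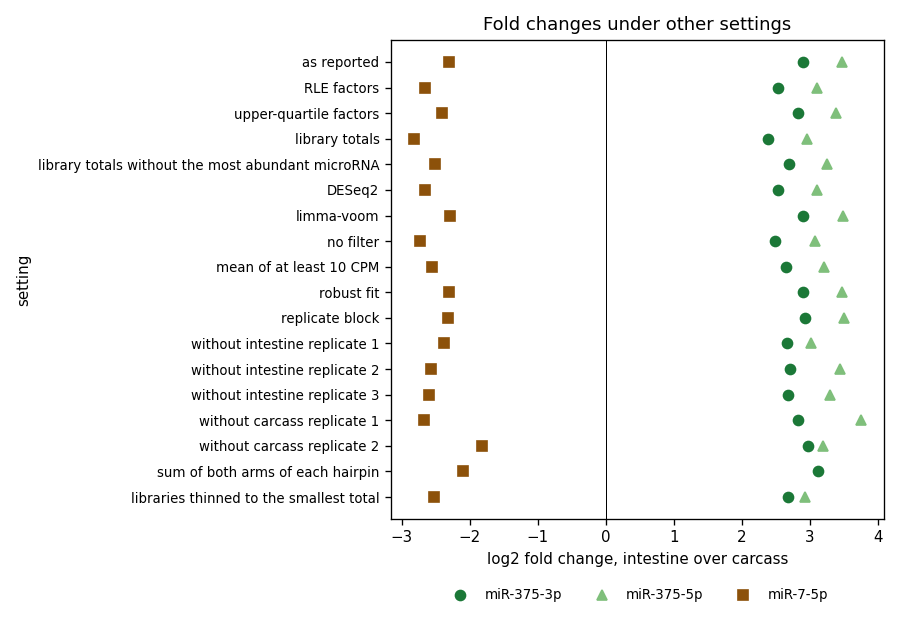
Log2 fold change, intestine over carcass, of miR-375-3p (circles), miR-375-5p (triangles) and miR-7-5p (squares) as reported and under each other setting, in rows. miR-375-3p ran from 2.38 to 3.11, miR-375-5p from 2.93 to 3.76 and miR-7-5p from -2.83 to -1.82.

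The ratio of mir-375 to mir-7 reads within a library does not depend on scaling. With both arms of each hairpin summed, there were 39.7, 28.5 and 27.8 mir-375 reads for each mir-7 read in intestine libraries 1, 2 and 3, against 1.13 and 0.696 in carcass libraries 1 and 2. mir-375 thus outnumbered mir-7 in every intestine library, whereas in the carcass the hairpins were near each other and their order differed between the libraries. On the log2 scale, with 0.5 read added to each sum, the ratio averaged 4.98 ± 0.29 over the 3 intestine libraries (SD) and -0.17 ± 0.49 over the 2 carcass libraries (SD), a difference of 5.15. The exact permutation test over libraries gave p = 0.2 (two-sided), which is the smallest value that 3 against 2 libraries allow.

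**Figure D4:**
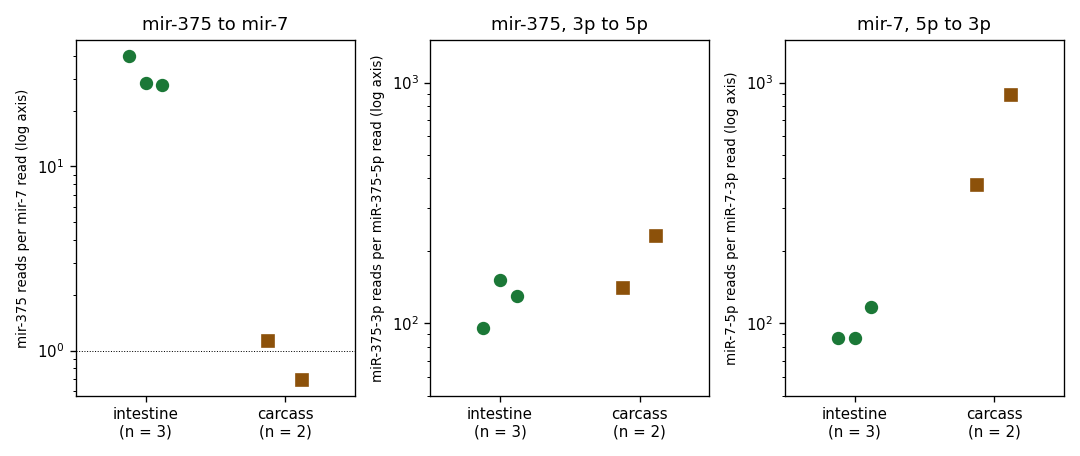
Read ratios within each library (log axes) in the intestine (circles, n = 3) and the carcass (squares, n = 2): mir-375 per mir-7 read, with a dotted line at 1, miR-375-3p per miR-375-5p read, and miR-7-5p per miR-7-3p read. The tissues separate in the left and right panels and overlap in the middle one.

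Both hairpins gave their reads almost wholly from one arm, the 3p arm for mir-375 and the 5p arm for mir-7. The minor arm of mir-375 made up 0.850% of its reads in the intestine and 0.524% in the carcass, summed over libraries, and that of mir-7 made up 1.06% in the intestine and 0.149% in the carcass. Over the 55 hairpins with at least 1000 reads in each tissue, the median share of the minor arm was 2.69% in the intestine and 2.56% in the carcass. In the carcass mir-7 had the second lowest share of these hairpins and mir-375 ranked 11, while in the intestine they ranked 14 and 11.

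For mir-375 there were 95.4, 152 and 129 reads of miR-375-3p for each read of miR-375-5p in intestine libraries 1, 2 and 3, against 140 and 231 in carcass libraries 1 and 2. The tissues overlapped. The fitted difference in the log2 ratio of 3p to 5p, intestine minus carcass, was -0.57 and did not pass the test (diffSpliceDGE of edgeR, adjusted p = 0.158 over 85 hairpins with both arms tested, of which 21.2% were called). Without carcass library 1 the difference was -0.93 (adjusted p = 0.0609), and without carcass library 2 it was -0.21 (adjusted p = 0.610).

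For mir-7 there were 87.0, 86.8 and 116 reads of miR-7-5p for each read of miR-7-3p in intestine libraries 1, 2 and 3, against 374 and 892 in carcass libraries 1 and 2. The tissues did not overlap: the main arm was lower in the intestine, and the minor arm overlapped between the tissues. miR-7-3p made up 1.14% (95% Clopper-Pearson interval 0.370 to 2.63), 1.14% (0.371 to 2.64) and 0.852% (0.176 to 2.47) of mir-7 reads in the intestine libraries. In the carcass libraries it made up 0.267% (0.169 to 0.400) and 0.112% (0.0761 to 0.159). The intervals cover counting error only, and those of all 3 intestine libraries overlap that of carcass library 1.

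The log2 ratio of 5p to 3p reads of mir-7 averaged 6.42 ± 0.19 over the 3 intestine libraries (SD) and 9.15 ± 0.89 over the 2 carcass libraries (SD), a difference of -2.73 with an exact permutation p = 0.2, again the smallest possible. Because miR-7-3p failed the filter, the hairpin was not in the test of filtered arms. Without a filter the fitted difference was -2.68 (diffSpliceDGE adjusted p = 0.000494 over 178 hairpins, of which 7.87% were called). It rests on 13 reads of miR-7-3p in the intestine and 54 in the carcass. Without carcass library 1 the difference of the mean log2 ratios was -3.36, and without carcass library 2 it was -2.10.

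The carcass libraries differed from each other in miR-7-5p. It measured 4078 TMM-scaled CPM in carcass library 1 and 7506 CPM in library 2, a ratio of 1.84. Of the 128 arms with at least 100 CPM in both carcass libraries, whose median ratio was 1.12, this was the second highest. miR-210-3p, of photoreceptors and neurons, followed with a ratio of 1.76. The neuronal miR-124-3p and miR-263b-5p, of sensory organs, had 1.33 and 1.22 and ranked only 40 and 54 of the 128. The muscle arms differed from each other: miR-133-3p had 1.62 and the far more abundant miR-1-3p had 0.963, below the median. The whole neuron and eye list summed to 20686 CPM on library totals in carcass library 1 and 30126 CPM in library 2, and its part in the difference in miR-7-5p was not tested. miR-375-3p had a ratio of 1.14, close to the median. In the intestine the coefficient of variation was 4.33% for miR-375-3p, 22.9% for miR-375-5p and 19.2% for miR-7-5p.

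mir-375 was not confined to the intestine. On library totals, the carcass level of miR-375-3p was 18.5 and 20.0% of its intestine mean, and that of miR-375-5p was 16.0 and 10.5%, in carcass libraries 1 and 2. The intestine markers were at a far lower relative level in the same carcass libraries, with 0.385 to 0.453% for miR-958-3p, 1.04 to 1.22% for miR-956-3p and 4.26 to 5.13% for miR-314-3p. Relative to the intestine, both arms of mir-375 thus stood higher in the carcass than any of these marker arms. The markers were chosen with earlier results of these data known, so this contrast is descriptive and not an independent yardstick.

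miR-7-5p, in turn, was not confined to the carcass. On library totals its intestine level was 11.1 to 16.5% of its carcass mean. Of the main arms of the neuron and eye list, 4 stood lower in the same intestine libraries, at 0.733 to 1.08% of the carcass mean for miR-124-3p, 0.527 to 1.03% for miR-210-3p, 0.389 to 0.915% for miR-263b-5p and 2.13 to 2.76% for miR-1000-5p. The remaining one, miR-137-3p, went the other way, at 125 to 191% of its carcass mean. This list, too, was chosen with earlier results of these data known. Of the muscle arms, miR-133-3p was at 0.643 to 1.63% and miR-1-3p at 19.6 to 29.3%. miR-1-3p is also expressed in the muscle layer that surrounds the intestine, whose part in this level was not tested.

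**Figure D5:**
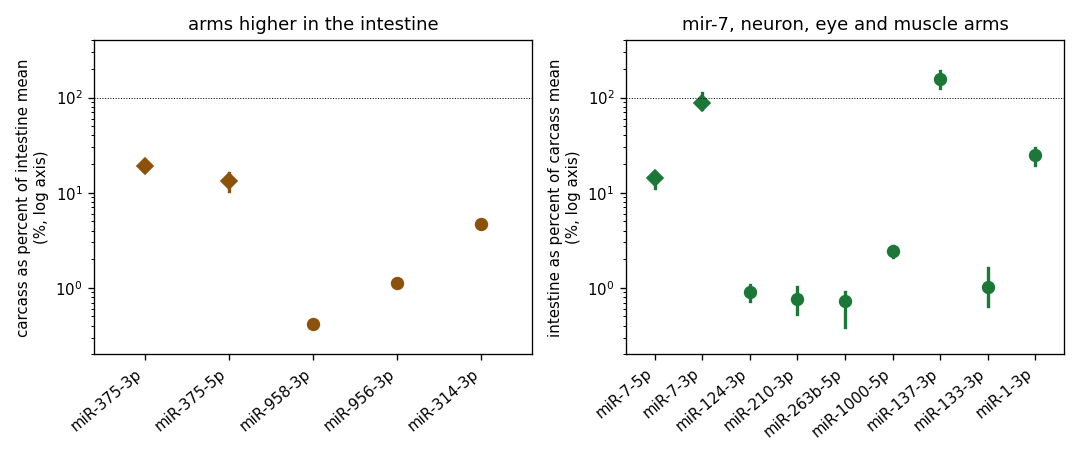
Left: carcass level as a percentage of the intestine mean for the mir-375 arms (diamonds) and intestine markers (circles), 2 carcass libraries. Right: intestine level as a percentage of the carcass mean for the mir-7 arms (diamonds) and arms of neurons, eye and muscle (circles), 3 intestine libraries; points are means and lines run from the lowest to the highest library, on log axes of library-total CPM. miR-375-3p averaged 19.2%, above miR-958-3p (0.419%). miR-7-5p averaged 14.1%, above miR-124-3p (0.901%) but below miR-1-3p (24.7%) and miR-137-3p (157%).

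The arms with the most similar pattern were found by the Euclidean distance between log2 CPM values, each centred on its own mean over the 5 libraries, among 152 arms of other hairpins with a mean of at least 50 CPM. For miR-375-3p they were miR-1007-3p (distance 0.39), miR-1006-5p (0.41) and miR-283-5p (0.43), with log2 fold changes of 2.67, 3.02 and 3.25. For miR-375-5p they were miR-10-3p (0.54), miR-283-5p (0.63) and miR-1012-3p (0.79), with 2.96, 3.25 and 2.70. For miR-7-5p they were miR-980-3p (0.47), miR-307a-3p (0.74) and miR-987-5p (0.78), with -2.53, -2.12 and -2.39. With 5 libraries of 2 tissues, such likeness reflects mostly the size of the tissue difference. In level these arms ranged widely, since miR-10-3p measured 18606 CPM in the intestine and miR-1006-5p 101.

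Other microRNAs studied in fly insulin, ecdysone or neuropeptide signalling did not share one direction. Of the 20 arms of 10 such hairpins, all tested, 8 were called higher in the intestine and 3 lower, against 34.7% and 48.2% of all arms. Their median log2 fold change was 0.27 with TMM, -0.09 with RLE factors and -0.25 with library totals, and with totals 5 were higher and 8 lower, so the balance of the list depends on the scaling. miR-8-3p and miR-8-5p, of a microRNA that promotes insulin signalling in the fat body, were lower (-1.12 and -1.30). miR-14-5p, the minor arm of a microRNA that acts in insulin-producing neurosecretory cells, was higher (1.59), and so was let-7-3p, the minor arm of the ecdysone-responsive let-7 (1.35). The log2 ratio of 3p to 5p, intestine minus carcass, also differed for let-7 (1.31, diffSpliceDGE adjusted p = 6.9e-05) and mir-14 (-0.73, adjusted p = 0.029). These minor arms thus do not give the change of the main arms. Each fold change named here for the miR-8, miR-14 and let-7 arms was smaller in size than those of miR-375-3p, miR-375-5p and miR-7-5p. That comparison of sizes was not tested.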

How the data were processed

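The deposited file holds raw read counts for each mature microRNA arm, with 1 column per library. Per the submitters' processing notes, cutadapt 1.9.1, Bowtie2 2.3.2 and featureCounts (Subread 2.0.0) were used; the build, the annotation and the handling of strand and of multiply matching reads were not given in the sources used here. Per the labels' protocols, linkers were ligated to gel-selected RNA; levels were not corrected for ligation preference, which limits comparisons between arms. Arm positions come from BDGP6.54, with 473 rows matched by name and 6 by synonym.

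Counts of all arms were fitted with edgeR 4.0.16 (R 4.3.3) after filterByExpr by tissue (minimum count 10, total 15), with TMM factors, the quasi-likelihood test and a threshold of 0.05 on the Benjamini-Hochberg adjusted p. Standard errors were derived from the log2 fold change and the F statistic. Arm ratios were tested with diffSpliceDGE. CPM are relative to microRNA reads, not to full library depth. The fits were also run on simulated counts, whose changes were fewer than the calls in these data and smaller than the largest. That run does not bear on the choice of scaling. The labels do not state that libraries of a tissue are from different animals; p-values cover only their spread, possibly a technical one. Replicates differed beyond sampling noise (chi-square per degree of freedom 11.9 or more).

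The members and the lists (hormone-related, neuron and eye, muscle, testis, intestine) were chosen with earlier results of these data known. Named by rule were all member arms, the 3 nearest arms to each tested member, up to 4 called hormone-related arms with the smallest p, and the most abundant markers. Alternatives included DESeq2 1.42.0 and limma-voom (limma 3.58.1).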

Additional observations from a re-analysis of the deposited data

How the results depend on the processing

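miR-375-3p, miR-375-5p and miR-7-5p kept direction and call under every alternative run: 4 other scalings, limma-voom, DESeq2, a robust fit, no filter or one on a mean of 10 CPM, a replicate block, thinning to 329424 reads per library, leaving out each library and, for the main arms, summing the arms of a hairpin. Leaving out 1 library gave log2 fold changes of 2.67 to 2.98 for miR-375-3p, 3.02 to 3.76 for miR-375-5p and -2.67 to -1.82 for miR-7-5p; a lone carcass library is assumed to vary like the intestine. The count of higher arms, 77, was 50 with library totals, and 64 to 76 without 1 library. The untested log2 ratio of mean CPM of miR-7-3p, 0.34, was -0.028 with RLE factors and -0.19 with library totals. Without 1 library it ran from -0.034 (without intestine replicate 2) to 0.55. With no filter the fitted log2 fold change of miR-7-3p, a different quantity, was -0.053. The cause of these shifts was not tested. The mir-375 to mir-7 difference ran from 4.80 to 5.50. The 20 other named arms kept direction and call in all 320 values computed. These arms were named from the same data, by call, likeness to called members or abundance. Their stability is therefore no separate support.

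The labels do not pair libraries, and same-numbered libraries deviated together little from their tissue means (r = 0.026 and 0.021 across arms). The deviations of 2 carcass libraries mirror each other, so these are not separate checks and cannot decide whether libraries are paired. With the replicate number as a block, miR-375-3p had 2.93, miR-375-5p 3.51 and miR-7-5p -2.33, with 73 arms higher and 107 lower. Intestine library 3, without a partner, does not bear on that fit. With 3 to 5 reads per intestine library, depth limits what can be said of miR-7-3p.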
